A study of Mus musculus with 12 samples.

Results

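The MHC class II presentation genes described here are 7 genes that build, load or switch on the peptide receptor read by CD4 T cells: H2-Aa, H2-Ab1, H2-Eb1, Cd74, H2-DMa, H2-DMb1 and Ciita. They were taken by their gene symbols from a table of raw read counts with 45777 rows, and all 7 passed the filter on low counts, as did 17885 rows in all. The counts come from RNA sequencing of 12 subcutaneous tumours that grew from 393P cells, a line of mouse lung cancer, in the flanks of 8-week-old male 129S2/SvPasCrl mice. There were 4 groups of 3 libraries. MAVS-reconstituted tumours were treated with the MPS1 inhibitor BAY-1217389 (group MAVS MPS1i), or were controls (MAVS control). MAVS-knockout tumours were likewise treated (KO MPS1i) or were controls (KO control). The sample titles write Veh for the controls and Luc for the knockout libraries, and the labels do not give the meaning of Luc. The inhibitor was given at 5 mg/kg 2 times a day for 2 days and tumours were collected on the next day. MPS1 is a kinase of the mitotic checkpoint, and MAVS is the mitochondrial adaptor that carries signals from cytosolic RNA sensors. The study asked which expression changes after a pulse of MPS1 inhibition depend on MAVS.

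The genotype label is taken here as that of the injected cells; a tumour piece also holds cells of the host mouse, and read counts do not separate these sources. The sources used here do not state whether the lines were single clones, what the reconstituted cells carry, or whether each library came from its own mouse, so p-values measure the spread between these libraries. In bulk tumour RNA, fewer cells of a type and less RNA per cell cannot be told apart.

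On GRCm38 (GENCODE M21), 5 of the 7 genes lie in the H2 complex on chromosome 17: H2-DMa at 34119541 to 34139101, H2-DMb1 at 34153072 to 34160230, H2-Ab1 at 34257689 to 34269419, and H2-Eb1 at 34305867 to 34316674, all on the plus strand, and H2-Aa at 34282744 to 34287823 on the minus strand. Ciita lies on chromosome 16 at 10480059 to 10528418 and Cd74 on chromosome 18 at 60803848 to 60812652, both on the plus strand. Of 50-base words in the annotated transcripts of H2-DMb1, 22.7% also occur in those of its paralogue H2-DMb2, so part of their reads may be split between the pair. Exons of H2-DMa share 360 bases with exons of Brd2 on the opposite strand and exons of Ciita share 329 bases with Dexi on the opposite strand; the labels do not say whether counting used the strand.

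As background, class II molecules are heterodimers of an alpha and a beta chain. In the mouse, H2-Aa and H2-Ab1 encode the alpha and beta chains of I-A, and H2-Eb1 encodes the beta chain of I-E. Cd74 encodes the invariant chain, which chaperones the dimer and blocks its groove until endosomal proteases cut it down; H2-DMa and H2-DMb1 encode the DM chaperone that exchanges the remaining fragment for antigen peptides. Ciita encodes the transactivator that is recruited to class II promoters by factors bound to the X and Y boxes. Dendritic cells, macrophages and B cells express these genes, and interferon-gamma induces Ciita in many other cell types. Ciita is transcribed from several promoters used by different cell types, which counts per gene do not separate.

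RefSeq promoter windows of 250 bases before to 50 bases after the gene start (GRCm38.p6) matched 4 of the 7 genes: H2-Aa, H2-Eb1, H2-DMb1 and H2-DMa, the last with a pair of annotated starts. They are shown because class II genes are known to share an arrangement of X and Y boxes. A pair of strings was searched on both strands, chosen after the members' windows were read: CTNGNAAC for the start of the X box and TGATTGG for the Y box, the inverted CCAAT string. The first occurs in 13.2% and the second in 7.82% of 32851 windows of 300 bases. Both on 1 strand with starts 25 to 45 bases apart occur in 0.07% of windows, belonging to 20 genes, of which 3 are members. The stretches holding both follow, read 5′ to 3′ on the gene's strand, with the X-like and the Y-like string in capitals.
H2-Aa, chr17:34287857-34287917, minus strand: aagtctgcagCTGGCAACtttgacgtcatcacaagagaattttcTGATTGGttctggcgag
H2-Eb1, chr17:34305763-34305822, plus strand: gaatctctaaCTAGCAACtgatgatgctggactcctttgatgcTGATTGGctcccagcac
H2-DMb1, chr17:34153084-34153144, plus strand: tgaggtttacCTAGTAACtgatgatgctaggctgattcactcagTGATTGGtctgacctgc
The starts of the strings were 34 bases apart in H2-Aa, 33 in H2-Eb1 and 34 in H2-DMb1. The X-like string began 84, 94 and 97 bases before the RefSeq start of the gene in that order. For H2-DMb1 the printed stretch lies after the GENCODE start at 34153072, so the annotations differ in where this gene begins. H2-Ob, a further class II gene that is no member, held the same pair 31 bases apart. Other class II genes that are no members did not: H2-Oa and H2-DMb2 held only the Y-like string, and H2-Eb2 held both strings but not at the spacing searched. In both windows of H2-DMa neither string was found. These windows began at 34122582 and 34125268, inside the GENCODE bounds of the gene, so its GENCODE start at 34119541 was not searched. A match describes the letters only.

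Total counts were 52983715 to 69108411 per library. Mavs read 50.0, 53.8 and 62.8 CPM (counts relative to library size, scaled by the trimmed mean of M-values, TMM) in MAVS MPS1i libraries, 85.0, 68.9 and 59.1 CPM in MAVS control, 43.5, 39.4 and 41.0 CPM in KO MPS1i and 40.5, 42.5 and 45.7 CPM in KO control. All libraries of reconstituted tumours lay above all libraries of knockout tumours, and averaged over treatments Mavs was called higher in reconstituted tumours, at a log2 difference of 0.58 ± 0.09 (SE; adjusted p = 0.0105, edgeR quasi-likelihood test). It did not pass within the inhibitor libraries (0.43, adjusted p = 0.126) or the controls alone (0.73, adjusted p = 0.0644). MAVS MPS1i replicate 1 stood apart: its 10 fibroblast markers summed to 3157 CPM, against 7904 to 19375 CPM in the other 11 libraries, and its TMM factor was the lowest, at 0.920.

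The 7 genes were well covered and together made up 0.308% to 0.576% of all counts in a library. Per kilobase of exon, Cd74 was the most abundant, with a median of 1094 CPM per kilobase over the 12 libraries, followed by H2-Ab1 (485), H2-Eb1 (364), H2-Aa (206), H2-DMb1 (75.4), H2-DMa (43.1) and Ciita (9.09). Each gene lay above the next in this order in all 12 libraries. Across libraries, the ranges of H2-Ab1 and H2-Eb1, of H2-Eb1 and H2-Aa, and of H2-DMb1 and H2-DMa overlapped, whereas those of the other neighbours were apart. Exon length counts every annotated exon, so a gene with long, little-used exons, as Ciita with 9535 bases, is placed lower by it.

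**Figure D1:**
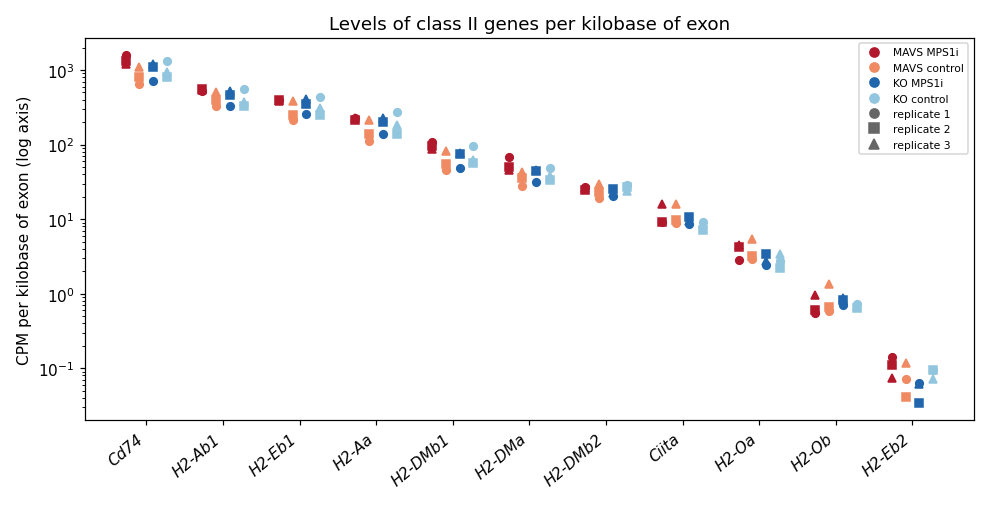
Levels of class II genes in CPM per kilobase of exon (log axis) for each of the 12 libraries, coloured by group, with genes ordered by their median. Cd74 sits highest, at a median of 1094, and Ciita lowest of the 7 members, at 9.09; H2-DMb2, H2-Oa, H2-Ob and H2-Eb2 are shown for comparison.

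The alpha chain partner of H2-Eb1 was not read in these tumours. H2-Ea, named H2-Ea-ps in the table, had 0 counts in all 12 libraries, where 3 counts would be 0.0434 to 0.0566 CPM. Mice of the H2b haplotype, which 129 strains carry, are known to lack a working H2-Ea promoter. H2-Eb1 was nevertheless read at 420 to 845 CPM. The remaining class II genes were low: H2-Oa at 3.14 to 7.60 CPM and H2-Ob at 2.92 to 7.17 CPM, which together encode the DO inhibitor of DM, H2-Eb2 at 0.117 to 0.474 CPM, and H2-DMb2 at 33.8 to 51.6 CPM.

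In reconstituted tumours, 6 of the 7 genes had all 3 inhibitor libraries above all 3 control libraries; Ciita did not. Over all genes tested, 14.7% showed that arrangement. Without MAVS MPS1i replicate 1, the library that stood apart, 17.4% of all genes showed it. The same 6 genes still did, but this was fixed in advance, since leaving out an inhibitor library cannot undo the arrangement. None of the 7 passed at an adjusted p of 0.05 (3 had an unadjusted p under 0.05, a count that was 0 in the 6 other comparisons), and neither did any other gene: 0% of 17885 genes were called in this comparison, although 5827 had an unadjusted p under 0.05 and the smallest adjusted p over all genes was 0.0729. The median log2 difference of the 7 was 0.55, against -0.005 over all genes tested. It was 0.36 without MAVS control replicate 1.

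Among the antigen-binding chains, H2-Ab1 had 1363, 1421 and 1389 CPM in MAVS MPS1i libraries, against 850, 1027 and 1291 CPM in MAVS control libraries. H2-Aa had 872, 823 and 865 CPM in MAVS MPS1i libraries, against 423, 520 and 810 CPM in MAVS control libraries. H2-Eb1 had 781, 761 and 751 CPM in MAVS MPS1i libraries, against 420, 485 and 738 CPM in MAVS control libraries. The inhibitor libraries were nearly level for all 3 chains, with coefficients of variation of 2.08%, 3.08% and 1.99% for H2-Ab1, H2-Aa and H2-Eb1, whereas control replicate 3 lay close below them and the other control libraries further down. The log2 differences were 0.40 ± 0.22 for H2-Ab1 (SE), 0.55 ± 0.28 for H2-Aa and 0.48 ± 0.24 for H2-Eb1, with adjusted p-values of 0.230, 0.195 and 0.194 (edgeR).

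The invariant chain and both DM subunits showed larger differences. Cd74 had 2650, 2212 and 2012 CPM in MAVS MPS1i libraries, against 1077, 1341 and 1830 CPM in MAVS control libraries. H2-DMa had 234, 174 and 159 CPM in MAVS MPS1i libraries, against 95.4, 123 and 146 CPM in MAVS control libraries. H2-DMb1 had 183, 163 and 145 CPM in MAVS MPS1i libraries, against 76.8, 92.8 and 137 CPM in MAVS control libraries. For each of these genes inhibitor replicate 1 was the highest of the 6 libraries and control replicate 1 the lowest. The log2 difference was 0.69 ± 0.25 (SE) for Cd74, or 1.62-fold with a 95% confidence interval of 1.11 to 2.37, at an adjusted p of 0.0922 (edgeR). It was 0.64 ± 0.21 for H2-DMa (adjusted p = 0.0796) and 0.68 ± 0.25 for H2-DMb1 (adjusted p = 0.0991).

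These calls depended on the tool. DESeq2 called Cd74, H2-DMa and H2-DMb1 at adjusted p-values of 0.0277, 0.0213 and 0.0340, in a comparison in which it called 25.5% of the 14409 genes it gave an adjusted p. With edgeR and without MAVS MPS1i replicate 3, H2-DMa was called (adjusted p = 0.0286), together with 31% of all genes then tested.

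Ciita had 86.7, 86.7 and 152 CPM in MAVS MPS1i libraries, against 84.1, 93.4 and 153 CPM in MAVS control libraries. Replicate 3 was the high library in each group, and the groups overlapped. The log2 difference was -0.02 ± 0.25 (SE; 95% confidence interval -0.58 to 0.53; adjusted p = 0.963, edgeR), and its direction turned with single libraries: it was -0.34 without MAVS MPS1i replicate 3 and 0.28 without MAVS control replicate 3. The same 2 libraries were also the highest of all 12 in Ptprc, the pan-leukocyte phosphatase CD45, at 149 CPM each, and in Itgax, the integrin CD11c of dendritic cells, at 47.2 CPM in MAVS MPS1i and 47.4 CPM in MAVS control; their part in the level of Ciita was not tested.

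**Figure D2:**
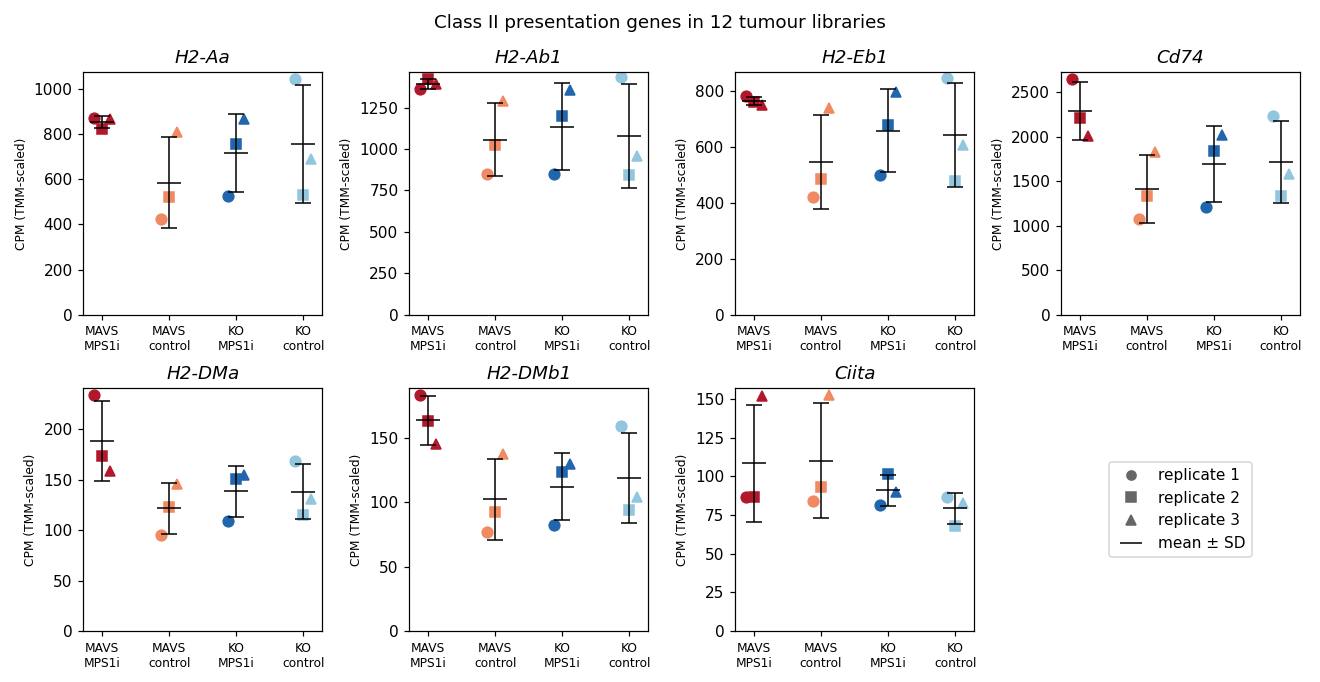
CPM (TMM-scaled) of each class II presentation gene in the 12 libraries, by group, with the mean and SD of the 3 libraries of a group. In the reconstituted tumours the MPS1i points lie above all control points for 6 genes, whereas Ciita overlaps, with replicate 3 at 152 and 153 CPM.

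In knockout tumours the inhibitor and control libraries overlapped for all 7 genes, where 8.73% of all genes did not overlap in one direction or the other. Cd74 had 1211, 1845 and 2019 CPM in KO MPS1i libraries, against 2231, 1335 and 1579 CPM in KO control libraries. H2-Ab1 had 846, 1199 and 1357 CPM in KO MPS1i libraries, against 1432, 844 and 958 CPM in KO control libraries. The spread within each group was wide: KO control replicate 1 was the highest library of its group for all 7 genes and KO MPS1i replicate 1 the lowest of its group. Log2 differences ran from -0.09 for H2-DMb1 to 0.20 for Ciita, with a median of 0.004, which was -0.14 without KO control replicate 2 and 0.23 without KO control replicate 1. The 95% confidence interval for Cd74 was -0.57 to 0.53 and for H2-Ab1 -0.41 to 0.56, so differences within those bounds were not excluded. All 7 adjusted p-values were 1 (edgeR), and 0% of genes were called; 305 genes had an unadjusted p under 0.05.

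Under the inhibitor, all 7 genes averaged higher in reconstituted than in knockout tumours, with a median log2 difference of 0.29, against 0.01 over all genes. The median was 0.18 without KO MPS1i replicate 1 and 0.44 without KO MPS1i replicate 3. H2-Ab1, H2-DMa and H2-DMb1 had all 3 MAVS MPS1i libraries above all 3 KO MPS1i libraries, an arrangement that 10.9% of genes showed. H2-DMb1 had 183, 163 and 145 CPM in MAVS MPS1i libraries, against 82.2, 124 and 130 CPM in KO MPS1i libraries, a log2 difference of 0.55 ± 0.25 (SE; adjusted p = 0.259, edgeR). H2-DMa differed by 0.45 ± 0.21 (adjusted p = 0.262) and Cd74 by 0.44 ± 0.25 (adjusted p = 0.335); H2-DMa was at 0.26 without MAVS MPS1i replicate 1, and without KO MPS1i replicate 1 H2-DMb1 was at 0.36 and Cd74 at 0.24. The other 4 differences were 0.22 to 0.29. None of the 7 was called, in a comparison in which 0.649% of genes were.

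In control tumours, reconstituted and knockout libraries overlapped for all 7 genes, where 31.1% of genes did not overlap in one direction or the other. The median log2 difference was -0.22, and it was 0.01 without KO control replicate 1, the library highest in class II within its group, and -0.48 without MAVS control replicate 3. Ciita was the member on the other side, at 84.1, 93.4 and 153 CPM in MAVS control libraries, against 86.7, 68.1 and 83.0 CPM in KO control libraries, a log2 difference of 0.47 ± 0.25 (SE; adjusted p = 0.333, edgeR). H2-Aa was lowest, at -0.37 ± 0.28 (adjusted p = 0.492). None was called, where 0.14% of genes were.

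The difference between genotypes in the inhibitor's effect, the interaction of the 2 by 2 design, was positive for 6 of the 7 genes, with a median of 0.62 on the log2 scale, against 0.005 over all genes. It was 0.77 ± 0.36 (SE) for H2-DMb1, 0.71 ± 0.35 for Cd74, 0.63 ± 0.29 for H2-DMa and 0.62 ± 0.39 for H2-Aa, with adjusted p-values of 0.209, 0.228, 0.210 and 0.334 (edgeR). For Ciita it was -0.22 ± 0.36 (adjusted p = 0.731). No member was called and 0% of genes were; 4421 genes had an unadjusted p under 0.05, none of the members among them. Without KO control replicate 1 the median interaction was 0.32. Averaged over treatments, the MAVS difference of the members had a median of 0.13, which was 0.029 without MAVS control replicate 3 and 0.21 without KO control replicate 1, with Ciita highest at 0.36 ± 0.18 (adjusted p = 0.375); none was called, where 1.56% of genes were. Averaged over genotypes, all 7 genes lay above 0 with the inhibitor, at 0.09 for Ciita to 0.34 for Cd74, and neither they nor any other gene were called (0%; 1399 genes had an unadjusted p under 0.05).

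**Figure D3:**
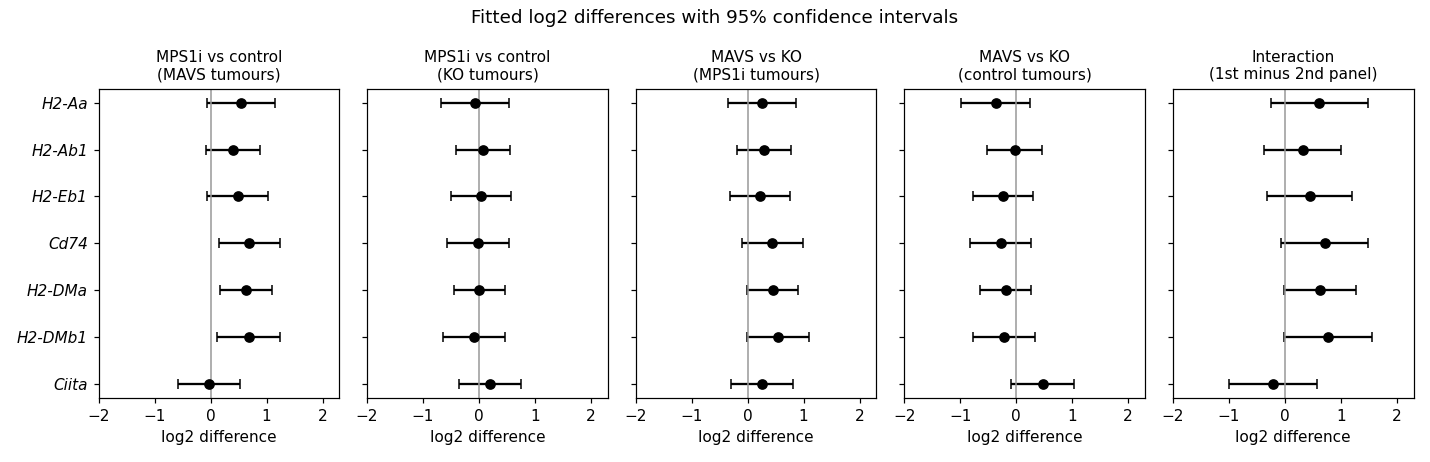
Fitted log2 differences of the 7 genes (points) with 95% confidence intervals (bars) in the 4 comparisons between groups and in the interaction. In the first panel Cd74, H2-DMa and H2-DMb1 have intervals above 0 before adjustment over all genes; in the second all intervals span 0.

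The reads of the invariant chain per read of the I-A beta chain were also compared, a ratio within each library that cancels its scaling. Reads of Cd74 per read of H2-Ab1 were 1.94, 1.56 and 1.45 in MAVS MPS1i libraries, against 1.27, 1.31 and 1.42 in MAVS control libraries. They were 1.43, 1.54 and 1.49 in KO MPS1i libraries, against 1.56, 1.58 and 1.65 in KO control libraries. The inhibitor libraries thus lay all above the controls in reconstituted tumours and all below them in knockout tumours. Of the levels of all genes tested, 14.7% lay all above in reconstituted tumours and 4.25% all below in knockout tumours. The share among ratios of other gene pairs was not computed. The controls also differed between genotypes, with MAVS control libraries all below KO control libraries, as were the levels of 15.5% of all genes. MAVS MPS1i and KO MPS1i libraries overlapped in the ratio. The inhibitor's effect on the log2 ratio was 0.30 in reconstituted and -0.10 in knockout tumours, a difference of 0.40. The 6 ratios to H2-Ab1 were chosen after the values were seen, so they are given as a description with no test. Leaving out each library in turn gave a difference of 0.28 to 0.49, with the lowest without MAVS MPS1i replicate 1.

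H2-DMb1 per H2-Ab1 read was 0.134, 0.115 and 0.104 in MAVS MPS1i libraries, against 0.0903, 0.0903 and 0.106 in MAVS control libraries. It was 0.0971, 0.103 and 0.0956 in KO MPS1i libraries, against 0.111, 0.112 and 0.108 in KO control libraries. The effects on the log2 ratio differed by 0.46 between genotypes, although the groups overlapped in reconstituted tumours. In knockout tumours the inhibitor libraries lay all below the controls, as they did for the Cd74 ratio. For the ratios of H2-Aa, H2-DMa, H2-Eb1 and Ciita to H2-Ab1 the difference was 0.31, 0.30, 0.14 and -0.56 in that order, and the inhibitor and control libraries overlapped in both genotypes.

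**Figure D4:**
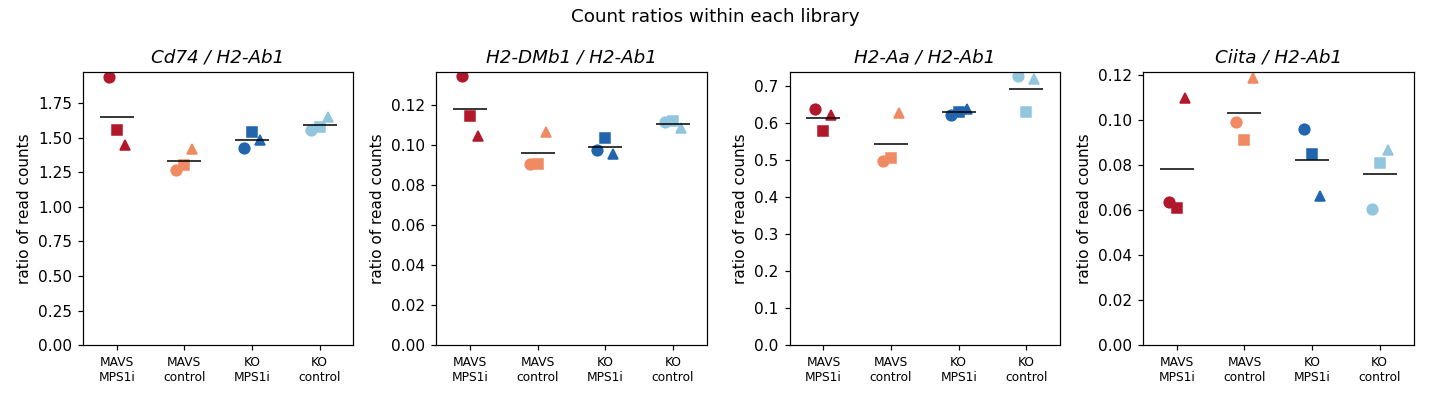
Reads of Cd74, H2-DMb1, H2-Aa and Ciita per read of H2-Ab1 in each of the 12 libraries, by group, with the group mean as a bar. For Cd74 the MPS1i points lie above the controls in reconstituted tumours (1.45 to 1.94 against 1.27 to 1.42) and below them in knockout tumours (1.43 to 1.54 against 1.56 to 1.65).

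The members other than Ciita moved together from library to library. Over the 12 libraries, Pearson's r of log2 CPM between pairs of the 6 ran from 0.864 (H2-Aa and H2-DMa) to 0.991 (H2-Aa and H2-Eb1), and on deviations from the group means from 0.824 to 0.996. Ciita followed them loosely, with r of 0.246 to 0.506, and 0.281 to 0.632 on the deviations. These libraries share their groups and their scaling, and the values are given as a description.

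H2-Ab1 was set against 7 genes across the 12 libraries (Pearson's r of log2 CPM, two-sided permutation tests, Benjamini-Hochberg adjustment over the 7). It followed Ifng, which encodes interferon-gamma: r was 0.71 (permutation p = 0.0104, adjusted 0.0365; rho 0.72, p = 0.0104, adjusted 0.0363) and 0.69 without the 2 farthest libraries. On deviations from the group means the relation to Ifng was 0.53 (permutation p = 0.0715, adjusted 0.178), so it did not pass within groups.

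For Ciita, r was 0.51 (permutation p = 0.0967, adjusted 0.226; rho 0.55, p = 0.0696, adjusted 0.162) and 0.53 without the 2 farthest libraries. On deviations from the group means r for Ciita was 0.53 (permutation p = 0.0764, adjusted 0.178), as for Ifng. The deviations gave 0.42 for Adgre1, 0.33 for Itgax, 0.23 for Ptprc and -0.22 for Cd79a, none of which passed. For Adgre1, which encodes the macrophage antigen F4/80, r was 0.29 (permutation p = 0.354, adjusted 0.620; rho 0.34, p = 0.287, adjusted 0.502). For Ptprc r was 0.22 (permutation p = 0.499, adjusted 0.699; rho 0.01, p = 0.974, adjusted 0.974) and turned to -0.21 without the 2 farthest libraries. For Itgax r was 0.09 (permutation p = 0.768, adjusted 0.896; rho -0.09, p = 0.786, adjusted 0.917). For Cd79a, a component of the B cell receptor, r was -0.01 (permutation p = 0.971, adjusted 0.971; rho 0.25, p = 0.435, adjusted 0.608) and turned to 0.18 without the 2 farthest.

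**Figure D5:**
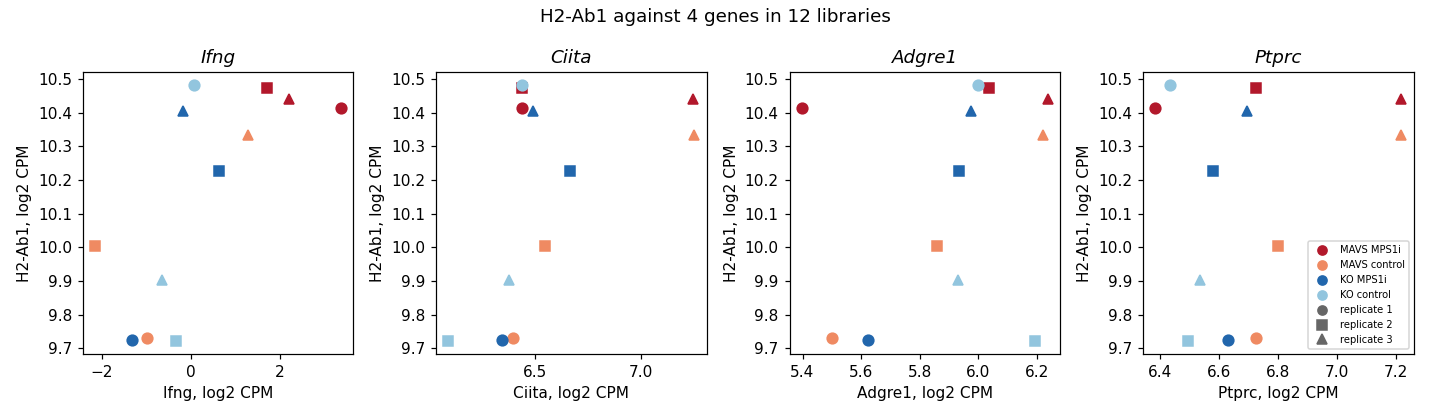
Level (log2 CPM) of H2-Ab1 against that of Ifng, Ciita, Adgre1 and Ptprc, with 1 point per library. Pearson's r is 0.71, 0.51, 0.29 and 0.22 in that order; the 2 points at the right of the Ciita and Ptprc panels are replicate 3 of MAVS MPS1i and of MAVS control.

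Of 17878 other genes, the 10 most like the mean of the members across the 12 libraries (Pearson's r with the mean of centred log2 CPM) were H2-M3 (0.962), F11r (0.940), Ctrl (0.940), Cebpa (0.939), Cxcl16 (0.937), Fuca1 (0.936), Cndp2 (0.935), Aif1 (0.932), Aar2 (0.932) and Bid (0.930). Ctrl averaged 0.396 CPM and rests on few reads. On deviations from the group means their r was 0.905 to 0.971.

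The wider class II pathway was followed through 5 lists with 40 genes, of which 39 were tested: other class II chains and editors, endosomal processing, promoter factors, Ciita inducers, and turnover and costimulation. In each of the 7 comparisons edgeR called 0 of the 39, where it called 0% to 1.56% of all genes. An unadjusted p under 0.05 was found for 0 to 18 of the 39, and for 305 to 5827 of all 17885 genes. In reconstituted tumours under the inhibitor 29 of 39 lay above 0, with a median log2 difference of 0.15, and 18 had an unadjusted p under 0.05. Of all 17885 genes, 8862 lay above 0 in that comparison and 5827 had an unadjusted p under 0.05.

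Among the Ciita inducers, Ifng had 10.4, 3.26 and 4.61 CPM in MAVS MPS1i libraries, against 0.502, 0.225 and 2.44 CPM in MAVS control libraries. All inhibitor libraries lay above all controls, for a log2 difference of 2.53 ± 0.78 (SE; adjusted p = 0.0755, edgeR). In knockout tumours Ifng had 0.399, 1.55 and 0.891 CPM in KO MPS1i libraries, against 1.05, 0.792 and 0.634 CPM in KO control libraries.

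The pathway genes with the smallest p in reconstituted tumours were Creb1, Socs1 and Irf8, none of which passed. Creb1, a factor of the X2 box, had 57.6, 59.3 and 66.2 CPM in MAVS MPS1i libraries, against 84.5, 80.9 and 75.6 CPM in MAVS control libraries, a log2 difference of -0.40 ± 0.08 (adjusted p = 0.0729, edgeR). Socs1, a feedback inhibitor of JAK kinases, had 158, 49.0 and 83.6 CPM in MAVS MPS1i libraries, against 11.9, 13.4 and 40.7 CPM in MAVS control libraries, at 2.14 ± 0.56 (adjusted p = 0.0729). Irf8, an interferon regulatory factor of myeloid cells, differed by 0.65 ± 0.19 (adjusted p = 0.0733). All 3 inhibitor libraries lay beyond all 3 controls for each of these genes, above them for Socs1 and Irf8 and below them for Creb1; of all genes, 14.7% lay all above and 14.8% all below.

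All 8 endosomal processing genes lay above 0 in reconstituted tumours, with a median of 0.35, and all 8 below 0 in knockout tumours, with a median of -0.10. Ifi30, the lysosomal thiol reductase GILT, had 282, 238 and 199 CPM in MAVS MPS1i libraries, against 123, 144 and 198 CPM in MAVS control libraries (0.63 ± 0.19, adjusted p = 0.0740, edgeR). The 9 promoter factors had a median of -0.07 in reconstituted and 0.05 in knockout tumours. Of the other chains and editors in reconstituted tumours, H2-DMb2 differed by 0.12 ± 0.14, H2-Oa by 0.003 ± 0.28 and H2-Ob by -0.28 ± 0.31, all overlapping (adjusted p = 0.579, 0.996 and 0.546).

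In the other comparisons the 3 pathway genes with the smallest p also did not pass. In knockout tumours under the inhibitor these were Lgmn, a lysosomal protease (log2 difference -0.27), H2-Eb2 (-0.70) and H2-DMb2 (-0.21), each with an adjusted p of 1. For MAVS under the inhibitor they were Tcirg1, a subunit of the vacuolar proton pump (0.69, adjusted p = 0.0646), Irf8 (0.87, 0.0680) and Socs1 (2.10, 0.101). For MAVS in controls they were Creb1 (0.25, adjusted p = 0.194), the costimulatory ligand Cd86 (0.49, 0.195) and the coactivator Crebbp (0.22, 0.200). For the interaction they were Creb1 (-0.47), the protease Ctsd (0.50) and Ifngr2, a chain of the interferon-gamma receptor (0.45), each with an adjusted p of 0.144. For MAVS averaged over treatments they included Tcirg1 (0.46, adjusted p = 0.0515) and Irf8 (0.54, 0.0750), and for the inhibitor averaged over genotypes Creb1 (-0.16), Socs1 (1.02) and Ifng (1.36), each with an adjusted p of 0.522.

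Markers of the cells that could carry class II were summed beside these results. The 12 macrophage markers summed to 2189 to 2773 CPM in MAVS MPS1i libraries, against 1796 to 2236 CPM in MAVS control libraries, and to 1708 to 2292 CPM in KO MPS1i, against 2120 to 2556 CPM in KO control libraries. The 12 dendritic cell markers summed to 72.0 to 85.5 CPM in MAVS MPS1i libraries, against 73.8 to 102 CPM in MAVS control libraries, and to 76.9 to 89.2 CPM in KO MPS1i, against 74.6 to 95.2 CPM in KO control libraries. The 10 general leukocyte markers summed to 1520 to 1634 CPM in MAVS MPS1i libraries, against 1179 to 1543 CPM in MAVS control libraries. In reconstituted tumours under the inhibitor, 10 of 12 macrophage markers (median log2 difference 0.24), 9 of 10 leukocyte markers (0.25) and 5 of 11 tested dendritic cell markers (-0.20) lay above 0, and none was called.

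The 10 B cell markers summed to 8.94 to 14.6 CPM in MAVS MPS1i libraries, against 8.50 to 9.72 CPM in MAVS control libraries, and only 4 of them passed the filter on low counts. Of the defining ones, Cr2 had 0 counts in all 12 libraries, Ms4a1 was at 0.105 CPM or below and Cd79a at 0.171 CPM or below. The 10 T cell markers summed to 30.2 to 46.7 CPM in MAVS MPS1i libraries, against 20.3 to 31.3 CPM in MAVS control libraries, with all 10 above 0 (median 0.89) and none called. H2-Ab1 per read of Itgax was 45.3, 41.6 and 29.5 in MAVS MPS1i libraries, against 21.7, 24.1 and 27.2 in MAVS control libraries, and 21.9, 29.7 and 35.1 in KO MPS1i, against 38.6, 26.9 and 24.5 in KO control libraries. All inhibitor libraries lay above all controls for this ratio in the reconstituted tumours, whereas the knockout groups overlapped. H2-Ab1 alone showed the same arrangement, as did the levels of 14.7% of all genes in reconstituted tumours. The ratio also moves with Itgax itself, 1 of the 12 dendritic cell markers, and class II per dendritic cell was not measured. H2-Ab1 per read of the macrophage gene Adgre1 overlapped in reconstituted tumours, at 32.3, 21.7 and 18.4 in MAVS MPS1i libraries, against 18.8, 17.7 and 17.3 in MAVS control libraries.

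Epcam, an epithelial adhesion molecule, was read in every library, at 128 to 193 CPM, which does not by itself identify the injected lung cancer cells. Averaged over treatments, Epcam was called lower in reconstituted tumours (log2 difference -0.35, adjusted p = 0.0310, edgeR), where 1.56% of genes were called. In reconstituted tumours under the inhibitor, 6 of 8 tested epithelial tumour cell markers lay above 0 (median log2 difference 0.33), and their sums did not overlap, at 6954 to 10175 CPM in MAVS MPS1i libraries, against 6410 to 6830 CPM in MAVS control libraries. All 10 fibroblast markers lay below 0 (median -0.48), with sums of 3157 to 9583 CPM in MAVS MPS1i libraries, against 9583 to 10032 CPM in MAVS control libraries. Of the endothelial markers 9 of 10 lay below 0 (median -0.30), at 171 to 234 CPM in MAVS MPS1i libraries, against 208 to 283 CPM in MAVS control libraries. All 12 skeletal muscle markers lay above 0 (median 1.97), at 90.2 to 2988 CPM in MAVS MPS1i libraries, with the highest in replicate 1, against 3.18 to 828 CPM in MAVS control libraries. None of these markers was called in that comparison. The part of any of these cell types, immune or other, in the class II differences was not tested. The 10 keratinocyte and Langerhans cell markers summed to 16.7 CPM or less in the libraries of that group.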

How the data were processed

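The authors deposited 1 table of raw read counts per gene and library, per its column names and whole-number values. Per the submitters' processing notes, Trimmomatic, HISAT2 and StringTie were used, with builds GRCm38 and mm10; their roles and versions are not stated. Libraries were made with a stranded mRNA kit after column extraction and DNase, per the labels' protocols.

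Counts were tested with edgeR 4.0.16 (R 4.3.3): low counts removed by filterByExpr, TMM scaling, 1 mean per group over all 12 libraries, quasi-likelihood F-tests and Benjamini-Hochberg adjustment over 17885 genes, called at 0.05. log2 CPM used a prior count of 2. DESeq2 1.42.0, limma-voom (limma 3.58.1), 2 other scalings, no filter, only the groups compared, the replicate number as a block and leaving out each of 12 libraries were alternatives. Counts of 52983715 to 69108411 per library leave the spread between libraries, not depth, as the main error for the members. No 2 libraries of a group agreed within counting noise. The edgeR step was checked on simulated counts.

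Named genes are the 7 members in every comparison, the 3 pathway genes with the smallest p where none was called, 10 genes given whatever their values, and the 10 genes most like the members. Of the genes these rules give, some are not reported here. Members and lists were chosen with earlier results of these data known. Sequences are from RefSeq, positions and exon lengths from GENCODE M21.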

Additional observations from a re-analysis of the deposited data

Results flagged for a closer look

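The ratio of Cd74 to H2-Ab1 reads moved in opposite directions with the inhibitor in the 2 genotypes: all 3 MAVS MPS1i libraries lay above all 3 MAVS control libraries, and all 3 KO MPS1i libraries lay below all 3 KO control libraries. The inhibitor's effect on the log2 ratio was 0.30 in reconstituted and -0.10 in knockout tumours, a difference of 0.40. MAVS control libraries (1.27 to 1.42) also lay all below KO control libraries (1.56 to 1.65), whereas MAVS MPS1i and KO MPS1i libraries overlapped. In knockout tumours the closest inhibitor and control libraries were at 1.54 and 1.56. This ratio was among 6 chosen after the values were seen, and the difference between genotypes in the inhibitor's effect was not tested. Among the 6, the difference was larger in size for H2-DMb1 (0.46) and Ciita (-0.56). Of the levels of all genes tested, 14.7% lay all above in reconstituted tumours and 4.25% all below in knockout tumours. The share among other ratios was not computed.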

How the results depend on the processing

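Of 910 log2 differences of single members recomputed under 19 alternatives, 874 kept their direction; 36, in 16 of 49 results, turned, all of them uncalled in both settings, and 35 of these came from leaving out 1 library. All 130 recomputed medians stayed within the pooled SD of the members between libraries, 0.311 on the log2 scale. That bound is wide for settings that leave out 1 library, so it does not show the medians to be stable. Within it, leaving out KO control replicate 1 took the median interaction from 0.62 to 0.32. The same step took the median for MAVS in controls from -0.22 to 0.01. The count of called members in reconstituted tumours under the inhibitor was 3 with DESeq2 (3668 genes in all) and 0 to 1 when each library was left out, with 1 only without MAVS MPS1i replicate 3 (5683 genes in all); in the other 6 comparisons it was 0 under every alternative run. Fitted with the replicate number as a block (replicate block), 0 members were called in all 7 comparisons and the median in reconstituted tumours was 0.58. Deviations of same-numbered libraries correlated at -0.317 to 0.515, with 10 of 18 pairs over 0.1, against 11 of 36 pairs with different numbers. All 6 pairs of replicate 2 were over 0.1 (0.115 to 0.460). Since not every pair was over 0.1 and the labels name no shared batch, the numbers were not taken to pair the libraries; whether a batch goes with the number was not tested. With each library left out in turn, Ciita ran from -0.34 to 0.28 in reconstituted tumours under the inhibitor, from -0.073 to 0.39 for MAVS under the inhibitor, from -0.55 to 0.085 in the interaction and from -0.072 to 0.24 for the inhibitor averaged over genotypes. In knockout tumours under the inhibitor H2-Aa ran from -0.27 to 0.23, H2-Ab1 from -0.076 to 0.33, H2-Eb1 from -0.14 to 0.28, Cd74 from -0.17 to 0.22, H2-DMa from -0.11 to 0.17 and H2-DMb1 from -0.23 to 0.18. For MAVS in controls H2-Ab1 ran from -0.20 to 0.23, H2-Eb1 from -0.50 to 0.015 and H2-DMb1 from -0.48 to 0.046. For MAVS averaged over treatments H2-Aa ran from -0.21 to 0.094, H2-Eb1 from -0.15 to 0.12 and Cd74 from -0.033 to 0.20, and limma-voom gave 0.0029 for H2-Eb1. The cause was not tested. Without the 2 libraries farthest from the median, the relation of H2-Ab1 to Ptprc was -0.21 and to Cd79a 0.18. Depth did not limit the members, whose counts were high in every library; the spread between 3 libraries a group did, and low genes such as Ifng, Cd79a and H2-Eb2 rest on few reads.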
